A study of Lupinus albus with 12 samples.

Results

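The untreated roots of white lupin (Lupinus albus) in this series are 3 libraries, control replicates 1, 2 and 3, out of 12. They were chosen by their label alone, as the roots that received no sucrose, and their genes were ranked by the mean of each library's share of its own total. Poly(A) RNA was turned into cDNA and read on Oxford Nanopore flow cells, which give long reads of single cDNA molecules. All plants were wildtype (cv. Amiga) and grew in Hoagland solution, a complete nutrient solution, and root sections of 5-6 cm with the tip were collected. The 9 other libraries come from roots held in 10 mM sucrose for 10, 15 or 20 min, with 3 replicates each, and are used here only beside the control. The sample labels give 3 plants for a replicate, while the methods of the study describe a single plant. Libraries with the same replicate number shared a flow cell, so plant, harvest and flow cell cannot be told apart.

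White lupin is a legume known for its cluster roots, dense groups of short rootlets that form under phosphorus or iron deficiency and release acids and protons. The root tip section holds the meristem, where cells divide, the elongation zone, where walls loosen and vacuoles fill, and a young differentiated zone with root hairs. Ribosomal proteins, histones, wall proteins, aquaporins and small secreted defence proteins are typical abundant transcripts of such tissue.

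The value table listed 23427 genes, of 38255 protein-coding genes in the annotation. Library totals were 259561, 184071 and 407780 in control replicates 1, 2 and 3, against 196413 to 391998 in the sucrose libraries. Between 13808 and 15569 genes were above 0 in a control library, and control replicate 2, with the smallest total, had the fewest. These totals do not follow the reads. By the sequencing statistics of the study, control replicate 2 had the most sequence reads of the controls and control replicate 3 the fewest. Of all genes listed, 10891 (46.5%) were above 0 in all 3 controls, 3741 in exactly 2, 4348 in exactly 1 and 4447 in no control. The 10 most abundant genes held 8.61% ± 1.84 (SD, n = 3) of the total and the 100 most abundant 26.7% ± 2.28. In each control, between 366 and 463 genes were needed to reach 50% of the total. The values are whole numbers of unknown scale, so the number of reads behind a value is unknown and no counting interval is given. A share is not divided by transcript length, which was not used here, and says how much of a library a gene took up.

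**Figure D1:**
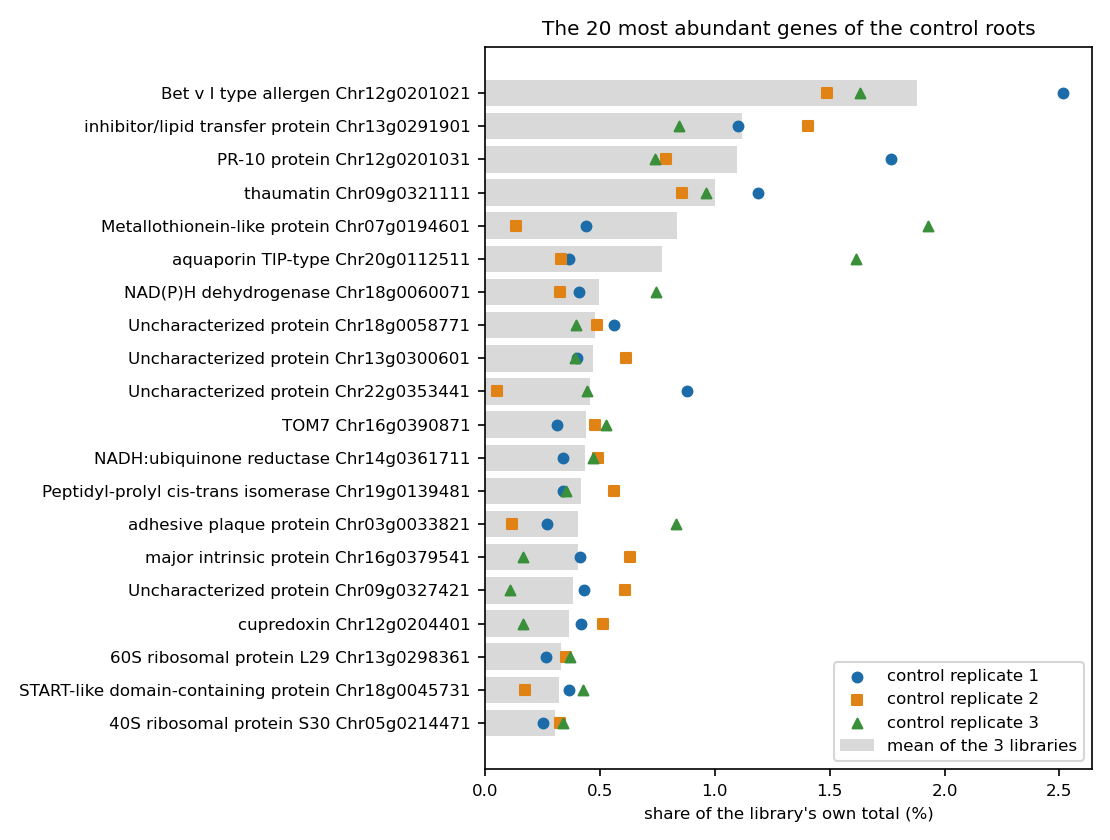
Share of each control library's own total, in percent, for the 20 genes with the highest mean share; grey bars are the mean of 3 libraries and each point is a library. Control replicate 3 stands far to the right for the metallothionein-like gene Lalb_Chr07g0194601 (1.93%) and the aquaporin Lalb_Chr20g0112511 (1.61%), and control replicate 1 for both leading PR-10 genes.

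Small defence-related proteins led the list. The most abundant gene was Lalb_Chr12g0201021, a Bet v I type protein of the PR-10 group (pathogenesis-related class 10, small proteins with a pocket that binds hydrophobic ligands), with values of 6530, 2739 and 6651, or 2.52, 1.49 and 1.63% of the total in control replicates 1, 2 and 3. Its neighbour Lalb_Chr12g0201031, named a PR-10 protein, held 1.77, 0.790 and 0.740%. Control replicate 1 had the highest share of the 3 for both. In bulk tissue, fewer cells of a type and less RNA per cell cannot be told apart. Both genes lie on chromosome 12 of CNRS_Lalb_1.0, at 2935255 to 2937955 and 2942032 to 2943157, in a row of 6 Bet v I type genes that ends at 2964684. The 6 genes together held 5.30, 2.45 and 3.13% of the controls and between 2.48 and 5.75% of the sucrose libraries. Within the row, the members did not keep to a common pattern. Lalb_Chr12g0201061 had values of 67, 11 and 782 and was highest in control replicate 3, whereas Lalb_Chr12g0201071, with 430, 49 and 28, was highest in control replicate 1. How the authors' counting divided reads among such neighbouring copies is not known, and values of single members are uncertain for that reason. Another PR-10 relative, Lalb_Chr18g0059031 (protein LlR18A, chromosome 18, 18991860 to 18993338), ranged from 24 in control replicate 2 to 2508 in control replicate 3, with 514 in control replicate 1. All 16 Bet v I and PR-10 genes of the table held 4.21% ± 1.71 (SD, n = 3).

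The second gene of the ranking was Lalb_Chr13g0291901 (chromosome 13, 2624670 to 2626085), of the bifunctional inhibitor and lipid transfer family, whose members are small secreted proteins many of which bind lipids. It held 1.10, 1.41 and 0.844% (values 2861, 2591 and 3443). Its sucrose libraries lay between 0.325 and 1.07%. Control replicates 1 and 2 were thus above all of them, and control replicate 3 was within their range. The family of 64 genes held 2.48, 2.90 and 2.43%, within 1.19 times of each other. Lalb_Chr14g0370991 of the same family was among the steadiest of the 100 leading genes, with 0.129, 0.142 and 0.141%. The fourth gene, the thaumatin Lalb_Chr09g0321111 (chromosome 9, 824542 to 825818), belongs to the PR-5 proteins, which are named for the sweet protein thaumatin and include antifungal members. It held 1.19, 0.856 and 0.964% and made up 91.6% of the share of the 20 thaumatin genes. Defensins, short cysteine-rich antimicrobial peptides, held 0.174% ± 0.0554, with 77.2% of it from Lalb_Chr05g0229081. The 16 chitinases, which cut the chitin of fungal walls, held 0.346% ± 0.142, and control replicate 2 was the lowest at 0.184% against 0.449 and 0.405%.

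Genes for metal binding and water movement were next, and here the controls parted. Lalb_Chr07g0194601 (chromosome 7, 16490660 to 16492140) encodes a metallothionein-like protein, a small cysteine-rich protein that binds metal ions. Its values were 1148, 249 and 7862, or 0.442, 0.135 and 1.93%, so that control replicate 3 was 14.3 times control replicate 2. The other leading members were closer: Lalb_Chr03g0042231 held 0.239, 0.102 and 0.179%, and Lalb_Chr01g0006561 held 0.120, 0.182 and 0.120%. The 6 metallothioneins together ranged from 0.444% in control replicate 2 to 2.54% in control replicate 3.

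The leading aquaporin, Lalb_Chr20g0112511, is annotated as TIP-type, the tonoplast aquaporins that let water pass the vacuole membrane (chromosome 20, 3530229 to 3532131). Its values were 949, 608 and 6583, or 0.366, 0.330 and 1.61%. Control replicates 1 and 2 were close, and control replicate 3 was 4.89 times the lowest. The order was the opposite for the next aquaporin, Lalb_Chr16g0379541, with 0.412, 0.630 and 0.168%, while Lalb_Chr17g0346641 was nearly level at 0.248, 0.257 and 0.322%. The 32 aquaporins, of which 7 were among the 100 leading genes, therefore differed much less as a family, with 2.04, 2.58 and 2.90%.

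The machinery of protein synthesis took the largest share of the 84 families looked for. The 462 genes for ribosomal proteins without an organelle in the name held 12.8, 16.5 and 14.6% of the controls, and 16 of them were among the 100 leading genes. The share was spread over many members: the leading gene, Lalb_Chr13g0298361 for ribosomal protein L29 of the large subunit, held 2.25% of the family. Lalb_Chr05g0214471 for S30 of the small subunit held 0.252, 0.327 and 0.339%. A second L29 gene, Lalb_Chr07g0182121, was the steadiest of the 100 leading genes, with 0.150, 0.154 and 0.153% (coefficient of variation 1.37%). The 19 elongation factors, which carry tRNA to the ribosome or move it along, held 0.407% ± 0.181. Control replicate 3 was the lowest at 0.221% against 0.418 and 0.583%, and the EF1-alpha gene Lalb_Chr22g0360661, for example, had values of 98, 184 and 28. Translationally controlled tumor protein, a conserved growth-related protein, was encoded by 4 genes with 0.497, 0.396 and 0.222%, nearly all of it from a pair on chromosome 7 (Lalb_Chr07g0177751 and Lalb_Chr07g0177771). Peptidyl-prolyl isomerases, which help proteins fold, held 0.705% ± 0.128, and 59.4% of it came from Lalb_Chr19g0139481. Ubiquitin genes held 0.545% ± 0.111 and proteasome genes 0.475% ± 0.0887.

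Histones, which package DNA and whose transcripts are abundant where cells divide, held 1.49, 2.37 and 3.03% over 56 genes. Control replicate 3 was above all 9 sucrose libraries, which lay between 1.06 and 2.38%. The leading histone gene, the H4 gene Lalb_Chr21g0314271, held 0.114, 0.196 and 0.286%. Because H4 genes encode almost the same protein, the division of reads among them is uncertain. Genes for mitochondrial proteins were also abundant. Lalb_Chr16g0390871 for TOM7, a small subunit of the import pore of the outer membrane, held 0.316, 0.481 and 0.527%. Lalb_Chr14g0361711, annotated as a subunit of NADH:ubiquinone reductase, the first complex of the respiratory chain, held 0.339, 0.492 and 0.471%. The 74 ATP synthase genes held 0.880% ± 0.176, led by Lalb_Chr25g0278611 with 0.219, 0.252 and 0.393%. The quinone-reducing NAD(P)H dehydrogenase Lalb_Chr18g0060071, an enzyme of redox protection, held 0.410, 0.328 and 0.745%.

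**Figure D2:**
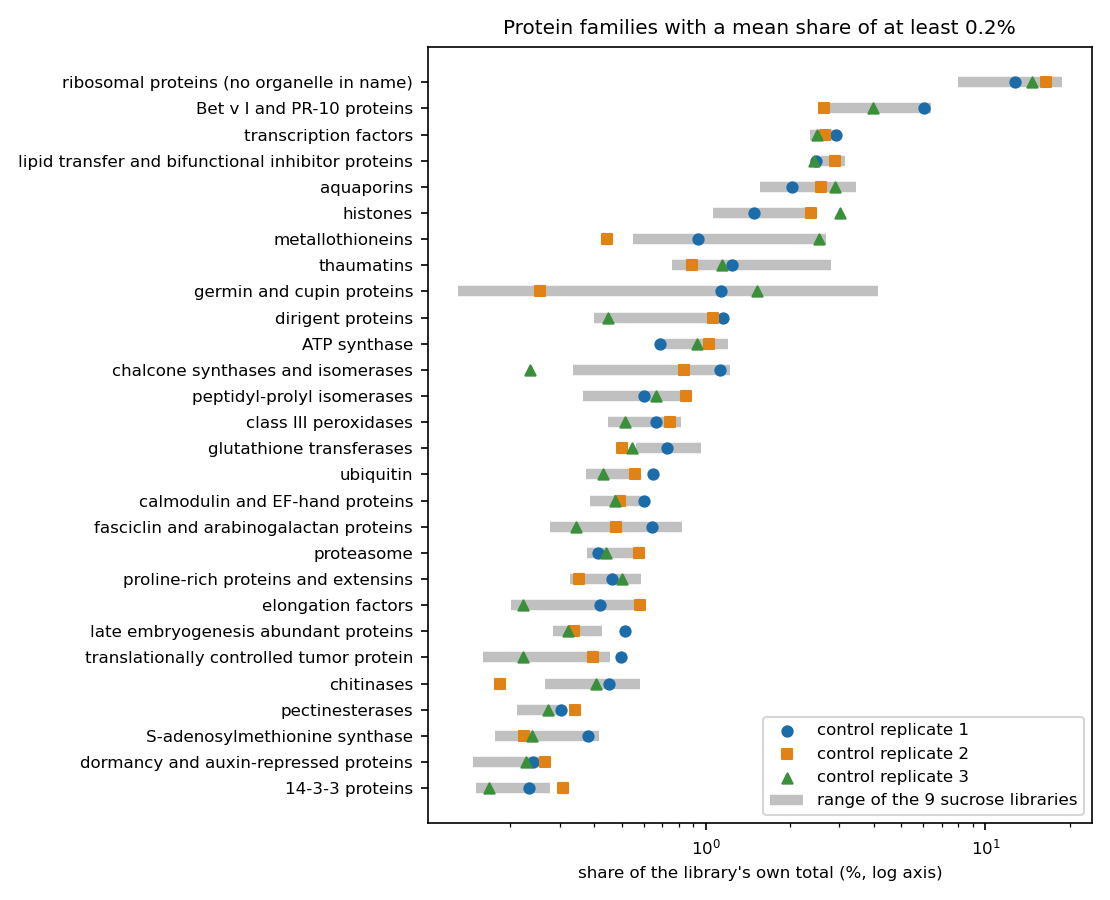
Share of the library total, in percent on a log axis, of the 28 protein families that held at least 0.2% on average; points are the 3 control libraries and grey bars span the 9 sucrose libraries. Ribosomal proteins lie at the top between 12.8 and 16.5%, and the points are farthest apart for germin and cupin proteins, metallothioneins and chalcone synthases.

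Of 28 families with a mean share of at least 0.2%, 14 differed by no more than 1.5 times between the highest and the lowest control. In 9 families the difference was more than 2 times: germin and cupin proteins (5.94 times), metallothioneins (5.72), chalcone synthases and isomerases (4.80), elongation factors (2.64), dirigent proteins (2.57), chitinases (2.45), Bet v I and PR-10 proteins (2.28), translationally controlled tumor protein (2.24) and histones (2.03). Transcription factors as a class, 1786 genes by the words of their names, were steady at 2.92, 2.66 and 2.51%. Single transcription factors were far less abundant than the leading proteins. The highest, Lalb_Chr01g0020391 of the C2H2 zinc finger family, held 0.267, 0.154 and 0.277% and was the only one among the 100 leading genes. Lalb_Chr03g0038491, also C2H2, had values of 132, 150 and 315, the cold shock domain gene Lalb_Chr19g0139191 had 54, 75 and 480, and the bZIP gene Lalb_Chr07g0186521 had 138, 63 and 45. The remaining gene of the leading 5, the C2H2 gene Lalb_Chr02g0153211, was listed at 0 in control replicate 2 and at 360 and 215 in the others.

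Genes of the phenylpropanoid pathway, which makes flavonoids and lignin precursors from phenylalanine, were abundant in control replicates 1 and 2 and lower in control replicate 3. The 15 chalcone synthases and isomerases, the entry to flavonoids, held 1.13, 0.836 and 0.235%. Control replicate 3 was below all sucrose libraries, whose lowest was 0.334%. The leading member, Lalb_Chr05g0211281, held 0.298, 0.248 and 0.0638%, and Lalb_Chr09g0320251 and Lalb_Chr09g0320261, neighbours on chromosome 9, went the same way with values of 589, 279 and 179, and of 507, 252 and 109. The 6 phenylalanine ammonia-lyases, the first enzyme of the pathway, held 0.186, 0.122 and 0.0233%. Dirigent proteins, which steer the coupling of lignan and lignin units, held 1.15, 1.06 and 0.449% over 26 genes, and Lalb_Chr07g0190971 (chromosome 7, 10014611 to 10015490) went from 498 and 146 to 34.

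Wall and surface proteins gave smaller shares. Fasciclin and arabinogalactan proteins, glycoproteins of the cell surface, held 0.489% ± 0.150 over 47 genes. Proline-rich proteins and extensins, which cross-link in the wall, held 0.438% ± 0.0777, and pectinesterases, which demethylate pectin, held 0.306% ± 0.0345. Class III peroxidases held 0.641% ± 0.118 over 57 genes, and 31.5% of it came from Lalb_Chr07g0177241, with 0.207, 0.165 and 0.233%. A gene annotated as a putative adhesive plaque protein, Lalb_Chr03g0033821, was the fourteenth of the ranking and had values of 707, 219 and 3386. It was again highest in control replicate 3 and lowest in control replicate 2, a spread of 6.98 times.

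Germin-like proteins, members of the cupin superfamily that sit in the wall and include superoxide dismutases, showed the widest spread between the controls of the 28 families. Their leading genes form a row of 5 on chromosome 4, between 14717882 and 14765695. In control replicate 2 the 5 genes had values of 3 to 6, in control replicate 1 of 270 to 569 and in control replicate 3 of 395 to 1470. Together they held 0.815, 0.0109 and 1.23%. A single sucrose library, 15 min replicate 1, was as low, with 0.0148%, and the other 8 lay between 0.320 and 3.89%. Lalb_Chr04g0261861, for example, had 6 in 15 min replicate 1 and 219 to 3006 in the other sucrose libraries. The row of 5 was chosen after its values were seen. Replicates 2 of the sucrose series, which shared the flow cell of control replicate 2, were not low.

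**Figure D3:**
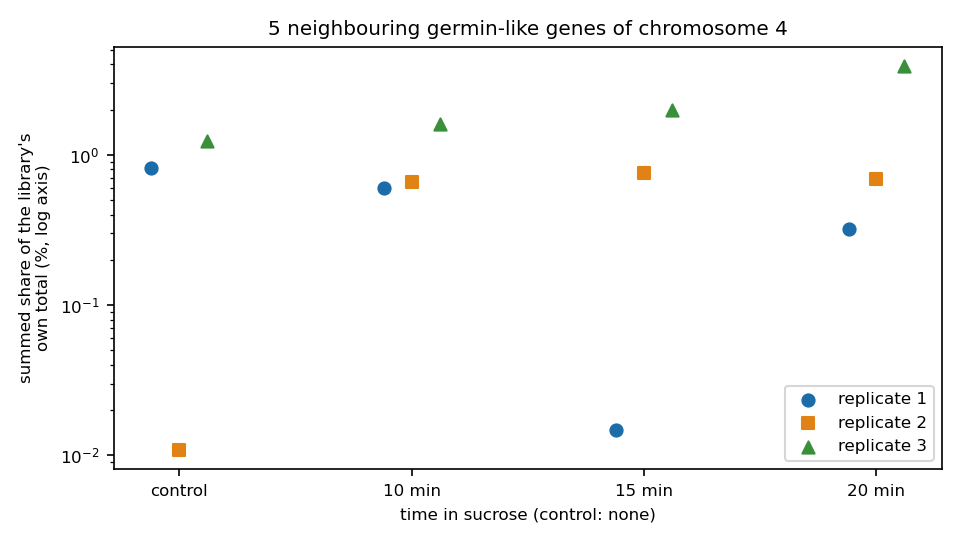
Summed share of 5 neighbouring germin-like genes of chromosome 4, in percent of each library's total on a log axis, by time in sucrose; each point is a library and its colour and shape give the replicate. Control replicate 2 (0.0109%) and 15 min replicate 1 (0.0148%) lie far below the other 10 libraries, which lie between 0.320 and 3.89%.

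Part of the abundant transcriptome had no known function. Uncharacterized proteins made up 4 of the 20 and 17 of the 100 leading genes and 17.4% ± 1.01 of the total. Lalb_Chr18g0058771 held 0.561, 0.487 and 0.397%, and with its neighbours Lalb_Chr18g0058781 and Lalb_Chr18g0058811 it formed another row of abundant genes on chromosome 18. Lalb_Chr13g0300601 held 0.403, 0.612 and 0.394%. In contrast, Lalb_Chr22g0353441 had 2285 and 1804 in control replicates 1 and 3 and 94 in control replicate 2, and Lalb_Chr09g0327421 had 1117, 1119 and 454. Lalb_Chr22g0355971 was among the 3 steadiest of the 100 leading genes, with 0.170, 0.165 and 0.148%. Lalb_Chr21g0312271 was among the 3 least steady, with 101, 0 and 1728.

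Markers of root and of other organs were read by name. Casparian strip membrane protein-like genes, whose founding members build the barrier of the endodermis, had 34 of 40 genes above 0 in a control. They held 0.0940, 0.173 and 0.0549% of the total. Of all 23427 genes listed, 18980 were above 0 in at least 1 control. The count of 34 of 40 is near that share and says nothing particular to these genes. All 4 root cap genes were above 0 in at least 1 control, but control replicate 2 had them at 0 and the others at 0.00539 and 0.0204%. Nitrate transporters held 0.0898% ± 0.0326, led by Lalb_Chr07g0183011, a high-affinity transporter with values of 131, 45 and 334. No gene was found under the names SHORT-ROOT, SCARECROW, PLETHORA or root meristem growth factor, which are names of Arabidopsis genes and peptides, and none as leghemoglobin, nodule-specific cysteine-rich peptide or seed storage protein. Other names linked with seeds were listed. Late embryogenesis abundant proteins, which also occur in other organs, had 48 of 55 genes above 0 in a control and held 0.391% ± 0.107. Oleosins of oil bodies had 4 of 5 genes above 0 and held 0.00527%. Both counts are again near the share of all genes. Chlorophyll a-b binding proteins, which mark green tissue, held 0.0697, 0.0864 and 0.0638%, and the small subunit and activase of RuBisCO 0.00308, 0 and 0.0115%. The 64 genes with a photosystem name held 0.0682, 0.146 and 0.280%, and genes of the mitochondrial chromosome 0.336, 0.591 and 0.798%, with control replicate 3 highest in both.

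Both reference genes that the study used for its qRT-PCR had low values. The histone H2A gene Lalb_Chr11g0072021 had 25, 17 and 32, or 0.00963, 0.00924 and 0.00785%. The proteasome gene Lalb_Chr08g0243601 had 3 in every control. They stand outside the rule by which the other genes were named.

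Genes outside these families were also among the 20 leading ones. The cupredoxin Lalb_Chr12g0204401, of a group of small copper proteins, held 0.419, 0.514 and 0.167%, and the START-like protein Lalb_Chr18g0045731 held 0.364, 0.173 and 0.428%. Glutathione transferases, which join glutathione to reactive compounds, held 0.726, 0.504 and 0.547% over 40 genes, led by Lalb_Chr03g0042741 with 0.265, 0.236 and 0.179%. The leading genes were short: the median annotated span, introns included, was 1178 bp for the 100 leading genes and 2925 bp for all genes of the table. None of the 100 overlapped another annotated gene.

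The controls shared their leading genes only in part. Of the 20 leading genes, 10 were among the 20 leading genes of all 3 controls, and 16 were among the 20 leading genes of the mean of the sucrose libraries, which the ranking did not use. For the 100 leading genes these counts were 53 and 88. Over the 100 genes the coefficient of variation had a median of 33.2% (1.37 to 152%); 52 stayed within 2-fold and 21 were at least 4-fold apart. Among 2544 genes with a mean value of at least 20, after scaling to the median library total, 1249 (49.1%) were within 2-fold and 650 (25.6%) at least 4-fold apart. Less abundant genes varied more, with a median coefficient of variation of 62.2% at mean values of 1 to 5, 43.6% at 5 to 20, 37.7% at 20 to 100 and 31.7% above.

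A few abundant genes were listed at 0 in a control. Among 614 genes with a mean of at least 100 there were 12, and several have short annotated spans or names of organelle genes. Lalb_Chr03g0038861, named uS12m after a ribosomal protein of mitochondria, had 0, 199 and 1286, and Lalb_Chr03g0038471, named ribosomal protein S1, had 0, 199 and 428. Both are annotated over short spans on nuclear chromosome 3 (12365263 to 12365415 and 10159869 to 10160021) and had equal values in control replicates 1 and 2, so reads of similar sequences may have been divided between them and their values are uncertain. Lalb_Chr16g0390501, named ovule protein, had 604, 0 and 0. Lalb_Chr11g0070071, named mitochondrial ATP synthase subunit 9, had 207, 164 and 0, and the peroxidase gene Lalb_Chr05g0213211 had 82, 192 and 0. Lalb_Chr11g0071601 (acetyl-CoA carboxylase) had 80, 154 and 0. Lalb_Chr18g0058041 (stress up-regulated Nod 19) had 137, 0 and 321, and the cupredoxin Lalb_Chr03g0030691 had 196, 0 and 175. Whether such a 0 is a missing transcript or a failed estimate was not tested.

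Across the 18980 genes above 0 in at least 1 control, Spearman's rho was 0.767 between control replicates 1 and 2, 0.663 between 1 and 3 and 0.599 between 2 and 3. On the log2 scale Pearson's r was 0.828, 0.769 and 0.709. These values run across genes, which are not independent replicates, and describe the libraries only. For each control the nearest library was a sucrose library and not another control. Control replicate 1 was nearest to 20 min replicate 1 (0.874), control replicate 3 to 15 min replicate 3 (0.840), and control replicate 2 to 15 min replicate 1 (0.831), ahead of 10 min replicate 2 (0.804). Over 9 pairs of a control and a sucrose library with the same replicate number the median rho was 0.804 (0.740 to 0.874), and over 18 pairs with another number 0.713 (0.620 to 0.865). This gap came from replicate 3: the 12 pairs that joined replicate 3 with replicate 1 or 2 had a median of 0.699, while pairs that joined replicates 1 and 2 (median 0.842, 6 pairs) were no lower than pairs within replicate 1 or 2 (0.792, 6 pairs).

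**Figure D4:**
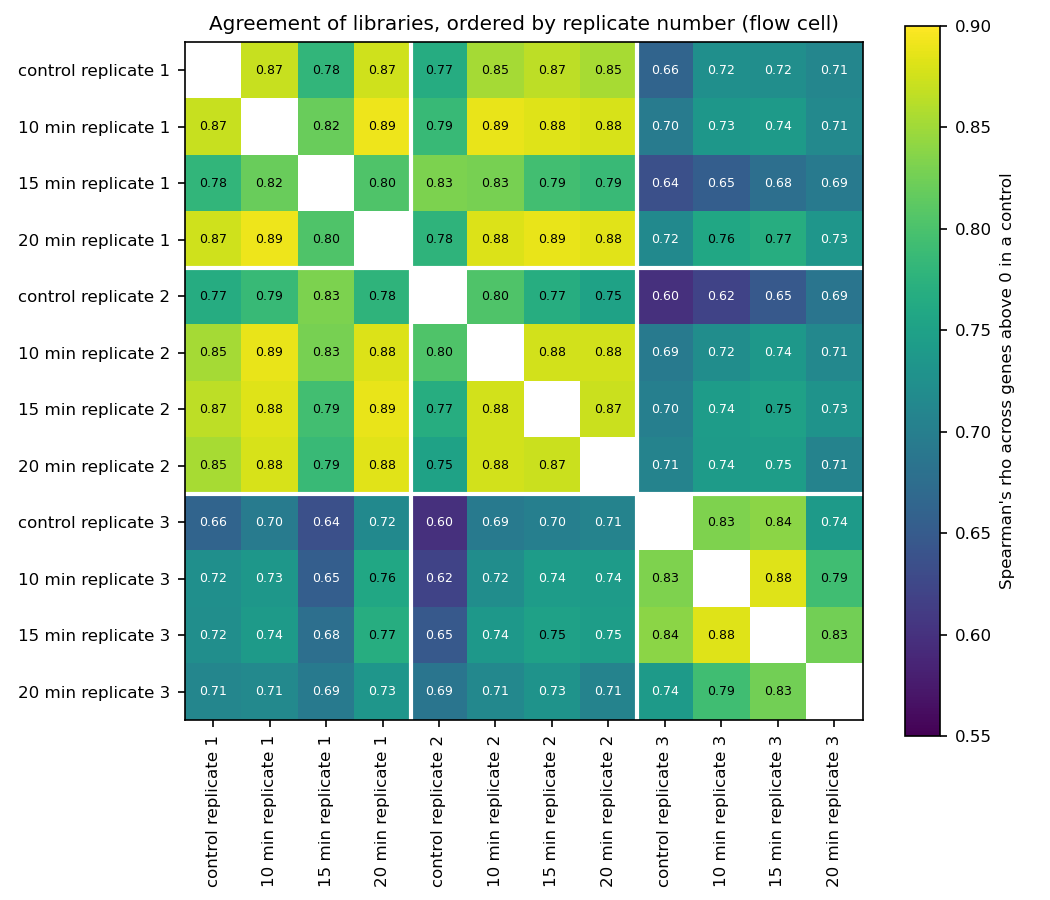
Spearman's rho across 18980 genes for every pair of the 12 libraries, ordered by replicate number and so by flow cell; white lines separate the numbers. Libraries of replicate 3 form a block of their own, with 0.740 to 0.840 between control replicate 3 and the sucrose libraries of that number, while control replicate 2 is nearest to 15 min replicate 1 (0.831).

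Genes that a single control set apart by at least 4-fold from both others were counted among the 2544. In control replicate 1, 44 were higher and 30 lower, in control replicate 2, 26 and 118, and in control replicate 3, 107 and 162. Chalcone synthases (3 of 7 genes), phenylalanine ammonia-lyases (3 of 4), dirigent proteins (7 of 18) and Casparian strip membrane protein-like genes (4 of 5) were among those low in control replicate 3. Photosystem genes (4 of 9) and genes of the mitochondrial chromosome (7 of 24) were among those high there. Neither was particular to control replicate 3. In control replicate 2, 2 of the 9 and 2 of the 24 were high, and in control replicate 1, 6 of the 24 were low. Among those low in control replicate 2 were germin and cupin proteins (5 of 12), chitinases (3 of 9) and Bet v I and PR-10 proteins (3 of 11).

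The sucrose libraries were not used to choose these genes and show whether the pattern came back. Of the 107 genes high in control replicate 3, 97 (90.7%) had their highest sucrose value in a library of replicate 3, against 30.7% of the 2544 genes, and of the 162 low genes 151 (93.2%) had their lowest there, against 65.6%. For control replicate 1 the counts were 27 of 44 high genes (61.4%, against 36.6%) and 19 of 30 low genes (63.3%, against 23.5%). In a limma fit to the 9 sucrose libraries with time and replicate, 71 of the 107 were higher in replicate 3 than in replicates 1 and 2 at an adjusted p of 0.05 or less and 0 were lower, where 7.95% of all 18316 genes tested were called higher and 9.15% lower. Among tested genes with a mean control value of at least 20 these shares were 8.56% and 26.4%. Of the 162 low genes 109 were called lower and 1 higher, Lalb_Chr25g0282891 (named 30S ribosomal protein S3, with 45, 108 and 0 in the controls), which was listed at 0 in the sucrose libraries of replicates 1 and 2. Of the 107, 6 did not pass the filter on low values, and of the 162, 1 did not. Genes at 0 in the sucrose libraries of replicates 1 and 2 passed it only through replicate 3 and could only be called higher. Besides Lalb_Chr25g0282891, examples are Lalb_Chr15g0082361, Lalb_Chr14g0374761 and Lalb_Chr05g0217711, which are among the 71. Likewise, Lalb_Chr02g0152341 of the 162, at 0 in replicate 3, could only be called lower. Calls of such genes are no support. How many of the 71 and of the 109 were such genes, or close to it, was not counted, so both counts include calls of fixed direction. The median difference over all genes in this fit was -0.15 on the log2 scale, and 0.03 without scaling, where 72 of the 162 were called lower. Leaving out 10 min replicate 3 or 15 min replicate 3 reduced the 109 to 53 and 52.

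The dirigent gene Lalb_Chr07g0190971, low in control replicate 3, had 22, 16 and 23 in the sucrose libraries of replicate 3 and 146 to 542 in the other 8 libraries, and the difference was -4.08 ± 0.22 (SE) on the log2 scale (limma, adjusted p = 0.000153). The lipoxygenase gene Lalb_Chr24g0396541, of the enzymes that oxidize polyunsaturated fatty acids, had 271, 250 and 46 in the controls and differed by -3.24 ± 0.22 (adjusted p = 0.000463, limma). In the other direction, Lalb_Chr01g0002711 of the lipid transfer family had 12, 6 and 164 in the controls and 613 to 945 in the sucrose libraries of replicate 3, against 3 to 26 in the other sucrose libraries (5.76 ± 0.22, adjusted p = 5.33e-05, limma). The leading metallothionein gene Lalb_Chr07g0194601 also kept its order, with 8159, 6533 and 2049 in replicate 3 and 463 to 1584 in the other sucrose libraries (1.89 ± 0.50, adjusted p = 0.0393). For the aquaporin Lalb_Chr20g0112511 the values were 3687, 6950 and 1027 against 444 to 1191, the groups overlapped and the adjusted p was 0.0720. The lipoxygenase and the lipid transfer gene were named after their values were seen.

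**Figure D5:**
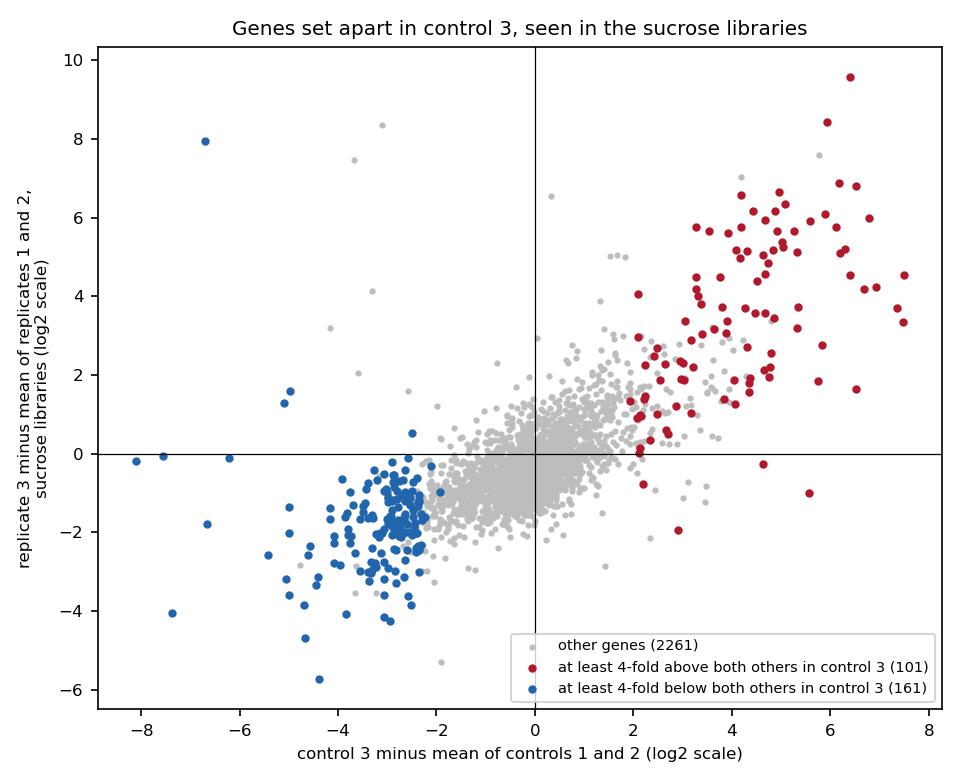
Difference of control replicate 3 from the mean of control replicates 1 and 2 (horizontal) and of replicate 3 from replicates 1 and 2 in the 9 sucrose libraries (vertical), both on the log2 scale, for genes with a mean control value of at least 20 that were tested; each point is a gene. Of the 101 tested genes high in control replicate 3 (red), 97 lie above 0 on the vertical axis, and of the 161 low there (blue), 157 lie below 0. The median vertical difference over all 18316 genes tested was -0.15. How many of all plotted genes lie above or below 0 was not counted.

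Genes set apart in control replicate 2 mostly had their sucrose extremes in libraries of another replicate number. Of the 118 genes low in it, 82 (69.5%) had their lowest sucrose value in 15 min replicate 1, which was the lowest for 15.4% of the 2544 genes, and 8 (6.78%) in a sucrose library of replicate 2, where 10.97% of the 2544 had theirs. Of the 26 genes high in it, 12 (46.2%) had their highest sucrose value in 15 min replicate 1, against 21.9% of the 2544, and 2 (7.69%) in a library of replicate 2, against 32.6%. Both libraries had the smallest totals, 184071 and 196413. The metallothionein-like gene Lalb_Chr12g0210241 had 5 in control replicate 2, 4 in 15 min replicate 1 and 124 to 1148 in the other 10 libraries. By the sequencing statistics of the study, control replicate 2 and 15 min replicate 1 also had the shortest reads on average after trimming. Reads of 20 min replicate 3 were nearly as short. That library was the lowest for 17 of the 118 genes (14.4%, against 38.3% of the 2544). It was the highest for 4 of the 26 (15.4%, against 11.6%). The part of the library total or of read length in these values was not tested.

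The control was also set against the sucrose libraries for its abundant genes. In a limma fit to all 12 libraries, 70 of 19138 genes were higher in the sucrose libraries than in the control (0.366%) and 24 lower (0.125%) at a log2 difference of at least 1.5 and an unadjusted p of 0.05 or less, and 0 of the 100 leading genes were among them, a count that is near these shares of all genes and says nothing particular to the leading genes. At an unadjusted p of 0.05 or less alone, 554 genes (2.89%) passed and 4 of the 100, again near the share of all genes. Over the 100 genes the median difference was -0.05 and the range -1.28 to 1.46 on the log2 scale. Below 0 were 58 of them, and 24 without scaling, where the median was 0.19 and that of all genes 0.18. Genes chosen for high control values lean towards lower values elsewhere by the choice alone. A single gene of the table (0.00523%) passed an adjusted p of 0.05, Lalb_Chr19g0140251, an uncharacterized protein far down the ranking. It had 11, 8 and 28 in the controls and was listed at 0 in all 9 sucrose libraries (adjusted p = 4.31e-05, limma). It passed the filter on low values only through the controls, where it was high, so it could only be called lower and its p-value is no independent support. With any control left out, this gene no longer passed the filter and was not tested. Of the genes then tested, none passed without control replicate 1 or without control replicate 3, and the lowest adjusted p of limma was 0.866 and 0.0672. Without control replicate 2, another gene passed (limma, adjusted p = 0.00139). With the replicate number as a block, the counts were 82 higher, 31 lower and 4 at an adjusted p of 0.05, and again 0 of the 100. At an unadjusted p of 0.05 or less alone, the block gave 968 genes and 8 of the 100. The 3 genes added were higher in the sucrose libraries: the early nodulin-93 gene Lalb_Chr07g0178771 (3.54 ± 0.40, with 4, 2 and 143 in the controls), the hypoxia induced gene Lalb_Chr08g0231331 (2.65 ± 0.31, with 7, 2 and 82) and the bHLH transcription factor Lalb_Chr17g0347051 (2.43 ± 0.30), each at an adjusted p of 0.0378 in limma. On the log2 scale of the fit, the bHLH gene averaged 0.28 in the controls, close to 0, and 2.72 in the sucrose libraries. It passed the filter on low values through the sucrose libraries, where it was high. It could hardly be called lower, so its p-value is no independent support.

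The smallest p-values among the 100 genes belonged to 3 neighbours of the lipid transfer family on chromosome 5 (9103660 to 9197739). Lalb_Chr05g0225671 had 480, 429 and 493 in the controls and 701 to 1651 in the sucrose libraries, a difference of 1.00 ± 0.30 (SE) on the log2 scale (limma, adjusted p = 1.00). Its shares were 0.121 to 0.233% in the controls and 0.239 to 0.530% in the sucrose libraries. The gene was picked by its p-value, and how many of all genes have ranges apart in this way was not counted. Lalb_Chr05g0225711 differed by 1.00 ± 0.32 and Lalb_Chr05g0225631 by 0.75 ± 0.31, and the adjusted p of limma was 1.00 for both. The fourth gene at an unadjusted p of 0.05 or less, the glutathione transferase Lalb_Chr16g0392551, differed by 0.80 ± 0.33 (limma, adjusted p = 1.00). None of them passed the correction over all genes. As close neighbours the 3 lipid transfer genes may share reads and are not independent of each other.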

How the data were processed

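Deposited gene values of 12 libraries were used. According to the methods of the study, reads were trimmed with Pychopper, mapped to CNRS_Lalb_1.0 with Minimap2 and quantified with Salmon in an Epi2me workflow. The authors named the deposited values CPM, but they are whole numbers whose sums differ between libraries and lie far below that of CPM. They were therefore used as a score that the authors deposited on an unknown scale, and a fold is relative to the library's total. The authors' table of a DESeq2 comparison, with log2 fold changes and p-values for each time point, was not used. All 23427 identifiers were found in the annotation of CNRS_Lalb_1.0.

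Shares are percent of each library's total. Families were formed by words in the deposited protein names. Members, families and lists were chosen with earlier results of these data known. Named genes were the 20 most abundant, the leading members of each family (up to 3 where the family held at least 0.2%), the 5 leading transcription factors, genes with the largest ratio between controls at a mean of at least 100, the 3 steadiest and 3 least steady of the 100 leading genes, and the 3 of these with the smallest p-value. Not all are described.

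Tests were fitted with limma 3.58.1 in R 4.3.3 on log2(value scaled to the median library total + 1), with a trend in the variance, for genes that reached 1 in 3 or more libraries, two-sided, with Benjamini-Hochberg adjustment over all genes tested. Fold changes of low genes are understated on this scale. The scripts were tested on simulated data. The methods of the study place each biological replication on its own flow cell, so replicate numbers pair the libraries. Deviations from group means correlated with a median of 0.285, 0.248 and 0.551 within replicates 1, 2 and 3, of 0.262 between replicates 1 and 2, and -0.36 between replicate 3 and the others, so that the values set only replicate 3 apart and the pairing rests on the methods of the study. P-values measure the spread between these libraries. In the fit of replicate 3 against replicates 1 and 2, this is the spread left after time and replicate number are fitted. Those p-values do not measure the spread between flow cells or biological replications. Python 3.11.15 and pandas 2.3.3 computed the rest. Alternatives were other scalings, pseudocounts and filters, a replicate block and leaving out each library.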

Additional observations from a re-analysis of the deposited data

How the results depend on the processing

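The ranking kept 19 of its 20 leading genes without scaling, with median-of-ratios scaling and with the median of the 3 shares, and 16 to 18 when a control was left out. Of the 100 leading genes, 88 to 90 remained. Divided by the annotated gene span (introns included), an alternative chosen after seeing the data because transcript lengths were not used, 16 of 20 and 71 of 100 remained. The share of the 10 most abundant genes ranged from 8.39 to 9.82% and of the 100 from 26.2 to 28.3% with a control left out. Counting ribosomal genes by GO term as well raised their share to 16.7% (600 genes). Among genes with a mean of at least 10, rho was 0.522 for control replicates 1 and 3 and 0.445 for 2 and 3, and with a pseudocount of 5, r was 0.829 and 0.782. Genes at least 4-fold apart numbered 282 of 1214 at a mean of at least 50 and 1150 of 4234 at 10.

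For sucrose minus control, a pseudocount of 0.5 gave 173 higher and 46 lower and a pseudocount of 5 gave 12 and 7. With a library left out, 60 to 167 were higher, 19 to 98 lower and 0 to 3 passed an adjusted p of 0.05. The extremes came from the controls, with 162 higher and 43 lower without control replicate 1 and 167 and 98 without control replicate 3 (696 and 910 at an unadjusted p of 0.05). At an adjusted p both gave 0, while 15 min replicate 2 left out gave 3. Lalb_Chr19g0140251 passed the filter on low values only with all controls in and was not tested with any control left out. The gene that passed without control replicate 2 was therefore another one. Without control replicate 1, 0 of the 100 leading genes were higher and 1 lower (Lalb_Chr03g0030121, -1.79), and without another library 0 and 0. The replicate block gave 4 genes at an adjusted p of 0.05, and 968 genes in place of 554 and 8 of the 100 in place of 4 at an unadjusted p of 0.05, and again 0 of the 100 at the log2 threshold. Without control replicate 2 and 15 min replicate 1 together, chosen after seeing the data, 59 were higher and 33 lower, with 0 of the 100.

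For replicate 3 in the sucrose libraries, 1457 genes were higher and 1676 lower, and higher calls were 46.5% of all, against 73.4% without scaling (533 lower) and 69.5% with median-of-ratios scaling (822 lower). With a library left out, 354 to 1260 were higher and 268 to 1607 lower. Of the genes high in control replicate 3, 49 to 80 were then called higher, and of those low there 52 to 135 lower, and 72 without scaling. Set apart at 2-fold, 127 were called higher and 237 lower. Division by annotated transcript length was not run.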

Other observations

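Chromosome 12 held 7.14% ± 1.47 (SD, n = 3) of the control total with 3.74% of the genes, the highest share of any chromosome, and 8 of the 100 leading genes. Chromosome 5 followed with 6.09% ± 0.345 and 9 leading genes, and chromosome 25 was the steadiest, with 2.83, 2.88 and 2.83%. The 135 genes of the mitochondrial chromosome held none of the 100 leading genes.

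Families of mineral nutrition, 83 genes by name, held 0.141% ± 0.0247 of the control total, most of it from nitrate transporters (0.0898%). Of the 2 genes named as phosphate transporters, the one above 0 in a control, Lalb_Chr05g0216571, had values of 1, 1 and 4, phosphoenolpyruvate carboxylases, which make the precursor of released organic acids, held 0.00743% ± 0.00404, MATE transporters, which include citrate exporters, 0.00597% ± 0.00144, and purple acid phosphatases 0.0388% ± 0.00710. Sucrose synthase, which splits imported sucrose, held 0.0320, 0.0538 and 0.0110%, with 77.3% of it from Lalb_Chr12g0200341 (values 60, 88 and 16). Early nodulins, a name given for genes of nodulating legume roots, were uneven, and the leading gene Lalb_Chr07g0178771 (early nodulin-93) had 4, 2 and 143 in the controls and 42 to 1391 in the sucrose libraries.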
